A study of Mus musculus with 12 samples.

Results

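The 10 genes Glul, Axin2, Lgr5, Rnf43, Znrf3, Oat, Tbx3, Slc1a2, Rhbg and Nkd1 are targets of β-catenin in the hepatocytes around the central vein of the liver lobule. They were taken by name, as the rows of the count table whose Ensembl gene identifiers carry these mouse symbols, and the list was drawn up with earlier results of these data known. All 10 were found among the 50686 genes of the table, and all 10 passed the filter on low counts. Liver messenger RNA was sequenced from FVB/N mice aged 6 to 8 weeks that had been injected through the tail vein with small interfering RNA (siRNA) packed in lipid nanoparticles, at 0.5 mg/kg and 1 injection in 5 days. The siRNA was directed against Eif3m, which encodes a subunit of the translation initiation factor eIF3, or against luciferase, which mice do not have. Livers were taken at day 9 or day 13, with 3 libraries in each of 4 groups: day 9 Eif3m siRNA, day 9 control, day 13 Eif3m siRNA and day 13 control. All groups thus carried nanoparticles with an siRNA. No label says whether the libraries of a group are from different animals, and p-values here reflect only the spread from library to library, which may be technical.

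Hepatocytes divide their metabolic work along the lobule, and those next to the central vein are set apart by Wnt signalling through β-catenin. Wnt ligands and R-spondins made by central vein endothelium keep β-catenin from being degraded, and it then activates target genes together with T-cell factor proteins. Among these targets are genes that take up ammonium and make glutamine, and genes of the pathway itself that restrain or sharpen the signal. In RNA from whole liver, fewer pericentral hepatocytes and less RNA per pericentral hepatocyte cannot be told apart, and the zone in which a transcript was made was not measured.

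Promoters are shown for Slc1a2 and Glul because they were the genes of the 10 whose lower level at day 13 passed the test. Sequences are RefSeq windows on GRCm38.p6, from 250 bases before to 50 bases after the start site, and the table of windows held 6 of the 10 genes, as 7 windows. Capitals mark a match to any of 4 T-cell factor motifs, CTTTGAA and CTTTGAT, and also CTTTGTA and CTTTGTT, searched on both strands.
Slc1a2, chr2:102706188-102706487, plus strand: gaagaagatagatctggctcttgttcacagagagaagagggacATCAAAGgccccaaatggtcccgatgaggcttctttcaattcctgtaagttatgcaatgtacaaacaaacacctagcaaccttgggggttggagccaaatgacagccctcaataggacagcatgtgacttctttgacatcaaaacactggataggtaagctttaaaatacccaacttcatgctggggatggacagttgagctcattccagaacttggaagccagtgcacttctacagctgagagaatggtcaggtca
Glul, chr1:153899679-153899978, plus strand: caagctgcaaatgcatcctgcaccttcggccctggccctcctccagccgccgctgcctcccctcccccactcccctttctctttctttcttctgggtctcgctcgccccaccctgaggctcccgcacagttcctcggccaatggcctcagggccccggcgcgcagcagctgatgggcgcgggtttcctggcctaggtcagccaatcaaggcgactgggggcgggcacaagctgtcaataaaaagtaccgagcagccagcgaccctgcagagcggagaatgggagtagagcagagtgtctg
The Slc1a2 window held 1 match, CTTTGAT read on the opposite strand, ending 200 bases before the start site. This window lies inside the GENCODE span of the gene, downstream of its first annotated base. The Glul window held none, and neither did the windows of Axin2, Nkd1, Oat and Rnf43. Of all 32851 windows of this length, 16.9% held at least 1 such match. The windows also differed in base composition, with 45.7% G and C in the Slc1a2 window and 64.3% in the Glul window.

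Eif3m itself was at 4.79 ± 0.0859 CPM, the unit of counts scaled to library size, in day 9 Eif3m siRNA livers and 44.8 ± 0.684 CPM in day 9 control livers (SD, n = 3 each). At day 13 it was at 2.37 ± 0.167 CPM in Eif3m siRNA livers and 36.4 ± 4.56 CPM in control livers (SD, n = 3 each). Total counts were 38783564 to 54538581 in day 9 libraries and 7650269 to 9630027 in day 13 libraries. The labels name a KAPA kit for the day 9 libraries and a Neoprep kit for the day 13 libraries. Day, kit and depth thus cannot be told apart, and each siRNA effect is a contrast within a day. The spread of each gene was estimated from all 12 libraries together. Tests at day 9 thus also draw on the day 13 libraries, and tests at day 13 on the day 9 libraries. Libraries of a group differed more at day 13, where log2 CPM had a median SD over genes of 0.247 with Eif3m siRNA and 0.268 in controls, than at day 9, where it was 0.127 with Eif3m siRNA and 0.144 in controls. The lowest libraries on the third principal component were day 13 Eif3m siRNA replicate 2, at −36.9, and day 13 control replicate 3, at −52.0, with all others between −6.05 and 37.6. The other day 13 Eif3m siRNA libraries were at 37.6 and 4.68, so that this group was spread widely with no single library set off, while the other day 13 control libraries lay close to each other. Calls on the 10 genes that change without these 2 libraries are given with and without them.

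At day 13 Glul fell to 60.4% and Slc1a2 to 49.6% of their mean control level. At day 9 Tbx3 fell to 56.7%, a call that several alternatives removed. No other gene of the 10 passed an adjusted p of 0.05 in edgeR's quasi-likelihood test, although 8 of the 10 had values below 0 at each day on the log2 scale of Eif3m siRNA over control. Rhbg had values above 0 at both days, and so had Znrf3, although its day 13 value was −0.03 with upper-quartile scaling. The median log2 fold change of the 10 was −0.24 at day 9, against 0.01 over all 14248 genes tested, and −0.49 at day 13, against 0.00.

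Those calls were 1 lower and 0 higher of 10 at day 9, where 12.8% of all genes tested were called, and 2 lower and 0 higher of 10 at day 13, where 23.7% were called. For lower calls alone the background was 6.84% at day 9 and 10.9% at day 13, and for higher calls alone it was 5.94% and 12.8%. The number of calls is near this background and is not a result about the 10 genes as a group. The fit of the day 9 libraries alone called 5 of the 10 at day 9, 3 lower (Axin2, Oat and Tbx3) and 2 higher (Znrf3 and Rhbg), and it called 23% of all genes. At an unadjusted p under 0.05 there were 4 of the 10 at each day, against 27.4% of all genes at day 9 and 36% at day 13. Groups did not overlap, with Eif3m siRNA lower, for Axin2, Rnf43, Oat and Tbx3 at day 9 (4 of 10, against 21% of all genes) and for Glul, Oat and Slc1a2 at day 13 (3 of 10, against 16%). They did not overlap with Eif3m siRNA higher for Znrf3 and Rhbg at day 9 (2 of 10, against 22.5% of all genes), and for 0 of 10 at day 13 (17.2%).

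**Figure D1:**
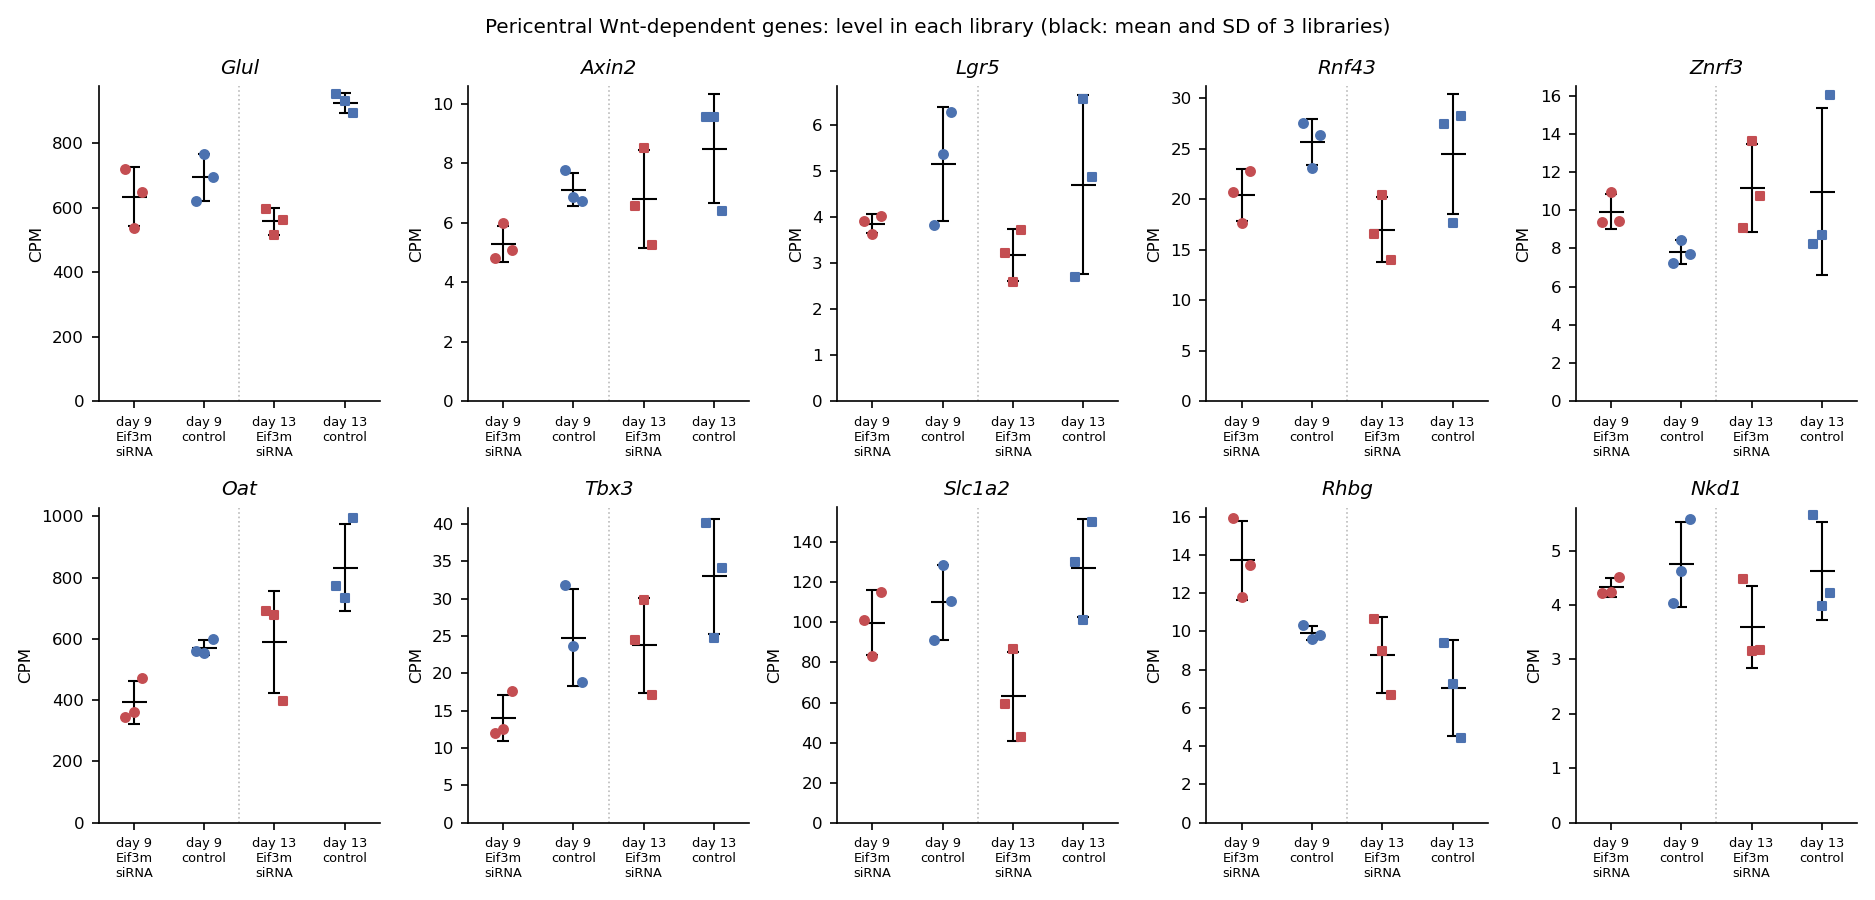
Level of each of the 10 genes in CPM (linear axes from 0) in every library, Eif3m siRNA in red and control in blue, circles for day 9 and squares for day 13; black lines are the mean and SD of 3 libraries. The day 13 groups do not overlap for Glul, Slc1a2 and Oat, while those of Znrf3, Lgr5 and Nkd1 overlap.

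**Figure D2:**
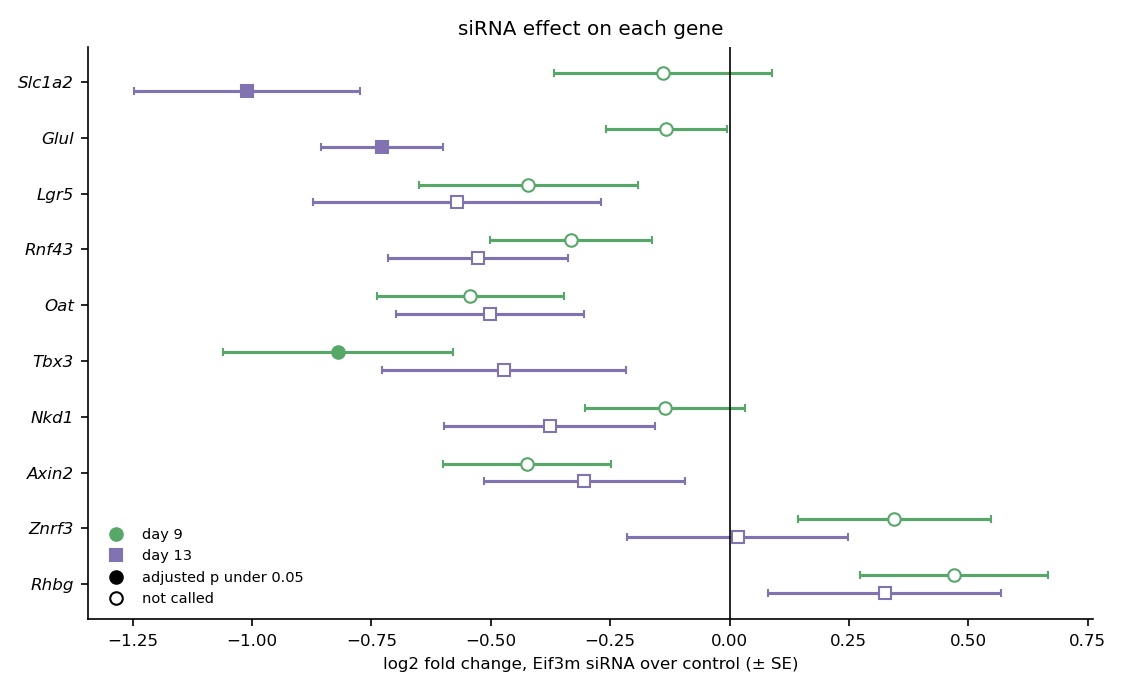
Log2 fold change of each gene, Eif3m siRNA over control, with its standard error, at day 9 (green circles) and day 13 (purple squares); filled symbols have an adjusted p under 0.05. The filled symbols are Slc1a2 and Glul at day 13 and Tbx3 at day 9, and Rhbg lies right of 0 at both days.

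Glul encodes glutamine synthetase, which joins ammonium to glutamate and is made in the hepatocytes nearest the central vein. The gene lies at chr1:153899944-153909723 on the plus strand (this and the following gene positions are from GENCODE M21, build mm10). At day 13 it was measured at 597, 514 and 563 CPM in Eif3m siRNA libraries, against 952, 929.6 and 892 CPM in control libraries. The groups were far apart, with every Eif3m siRNA library below every control library. The means were 558 ± 41.8 CPM with Eif3m siRNA and 925 ± 30.4 CPM in controls (SD, n = 3 each), a log2 fold change of −0.73 (SE 0.128, edgeR adjusted p = 0.00108). Glul was called at day 13 under all 22 alternative settings run, with log2 fold changes from −0.78 to −0.68.

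At day 9 Glul was measured at 718, 535.5 and 648 CPM in Eif3m siRNA libraries, against 621, 767 and 695.5 CPM in control libraries. The groups overlapped, and the highest Eif3m siRNA library lay above 2 of the control libraries. Its log2 fold change was −0.13 (SE 0.127, edgeR adjusted p = 0.547), with a 95% interval from −0.42 to 0.16. The day 13 effect minus the day 9 effect was −0.60 (SE 0.18, edgeR adjusted p = 0.0915), which missed the threshold. DESeq2 alone among the alternatives called this difference, with an adjusted p of 0.022.

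Slc1a2, at chr2:102658659-102790784 on the plus strand, encodes the glutamate transporter GLT-1, which in the liver lies in the membrane of pericentral hepatocytes and brings in glutamate. At day 13 its level was 59.4, 86.8 and 42.8 CPM in Eif3m siRNA libraries, against 129.9, 101 and 150.3 CPM in control libraries. Every Eif3m siRNA library lay below every control library, although the Eif3m siRNA libraries themselves spread widely. The means were 63.0 ± 22.2 CPM with Eif3m siRNA and 127 ± 24.7 CPM in controls (SD, n = 3 each), a log2 fold change of −1.01 (SE 0.236, edgeR adjusted p = 0.00802). Slc1a2 was called at day 13 under all 22 alternatives, with log2 fold changes from −1.33 to −0.81.

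The day 9 levels of Slc1a2 were 101, 83.3 and 115 CPM in Eif3m siRNA libraries, against 91.2, 128.5 and 110.5 CPM in control libraries. These groups overlapped through most of their range. On the log2 scale the change was −0.14 (SE 0.228, edgeR adjusted p = 0.746), with a 95% interval from −0.67 to 0.39. The difference between the days was −0.87 (SE 0.327, edgeR adjusted p = 0.176). Without day 13 Eif3m siRNA replicate 2, the highest of its group, that adjusted p was 0.043.

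Oat, at chr7:132557478-132576398 on the minus strand, encodes ornithine aminotransferase, the mitochondrial enzyme that links ornithine to glutamate and proline. At day 9 it was at 344, 361 and 472 CPM in Eif3m siRNA libraries, against 561.5, 554 and 599 CPM in control libraries. At day 13 Oat was at 692, 677 and 396.5 CPM in Eif3m siRNA libraries, against 771, 732 and 995 CPM in control libraries. The groups did not overlap at either day, but 1 library of each day 13 group lay far from the other 2. Its log2 fold change was −0.54 at day 9 (SE 0.197, edgeR adjusted p = 0.0882) and −0.50 at day 13 (SE 0.197, edgeR adjusted p = 0.0815), so neither passed the threshold. At day 9 Oat was called by DESeq2, in a fit of the day 9 libraries alone (adjusted p = 0.0138) and without day 13 Eif3m siRNA replicate 3, and at day 13 it was called under no alternative.

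Rhbg, at chr3:88242874-88254709 on the minus strand, encodes an ammonium transporter of the Rhesus family. Its level at day 9 was 15.9, 11.8 and 13.5 CPM in Eif3m siRNA libraries, against 10.3, 9.63 and 9.80 CPM in control libraries. The Eif3m siRNA libraries were all higher than the controls. The log2 fold change was 0.47 (SE 0.197, edgeR adjusted p = 0.139), which missed the threshold. It was called higher in the fit of day 9 alone (adjusted p = 0.0225) and in the fit without the 2 day 13 libraries lowest on the third component (log2 fold change 0.46, adjusted p = 0.0493).

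At day 13 Rhbg was at 10.6, 8.99 and 6.68 CPM in Eif3m siRNA libraries, against 9.42, 7.27 and 4.44 CPM in control libraries. These groups overlapped, and the log2 fold change was 0.32 (SE 0.244, edgeR adjusted p = 0.371). Of the 1937 exon bases of Rhbg, 1190 overlap exons of Gm38392 on the same strand, so the estimated counts of both are uncertain. With the counts of Gm38392 added, the log2 fold change was 0.35 at day 9 and 0.47 at day 13, and neither was called.

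Tbx3, at chr5:119670669-119684724 on the plus strand, encodes a T-box transcription factor found in pericentral hepatocytes. At day 9 it was at 11.98, 12.6 and 17.6 CPM in Eif3m siRNA libraries, against 31.8, 23.7 and 18.9 CPM in control libraries. Every Eif3m siRNA library was lower, but the nearest libraries of the groups almost touched. The means were 14.0 ± 3.07 CPM with Eif3m siRNA and 24.8 ± 6.52 CPM in controls (SD, n = 3 each), with a log2 fold change of −0.82 (SE 0.24, edgeR adjusted p = 0.0418). The call was lost in 10 of 22 alternatives: without day 9 control replicate 1 or 2, without day 9 Eif3m siRNA replicate 1 or 2, without day 13 control replicate 3 or day 13 Eif3m siRNA replicate 1, without the 2 libraries lowest on the third component, without a filter on low counts, with thinned day 9 counts and with the replicate number as a block. The highest adjusted p was 0.156, without day 9 control replicate 1, where the log2 fold change was −0.60. Without those 2 lowest libraries the log2 fold change was −0.83 (edgeR adjusted p = 0.0519).

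At day 13 Tbx3 was at 24.5, 29.8 and 17.1 CPM in Eif3m siRNA libraries, against 40.1, 24.8 and 34.1 CPM in control libraries. The groups overlapped, and the log2 fold change was −0.47 (SE 0.256, edgeR adjusted p = 0.206). In 115 exon bases Tbx3 overlaps the antisense gene Tbx3os1, and since the strand setting of the counting is not given in the sources used here, those reads cannot be told apart.

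Lgr5, at chr10:115450311-115587780 on the minus strand, encodes a receptor for R-spondins that strengthens Wnt signalling. It was at 3.91, 3.63 and 4.03 CPM in day 9 Eif3m siRNA libraries, against 3.83, 5.37 and 6.27 CPM in day 9 control libraries. The day 13 levels were 3.22, 2.60 and 3.72 CPM in Eif3m siRNA libraries, against 2.69, 6.555 and 4.87 CPM in control libraries. The groups overlapped at both days, and day 13 libraries held 23 to 34 Lgr5 counts with Eif3m siRNA and 20 to 46 in controls. Lgr5 had a log2 fold change of −0.42 at day 9 (SE 0.229, edgeR adjusted p = 0.256) and −0.57 at day 13 (SE 0.303, edgeR adjusted p = 0.193). The day 13 interval, from −1.27 to 0.13, takes in no change as well as the day 13 value of Slc1a2.

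Rnf43 and Znrf3 encode related membrane ubiquitin ligases that remove Wnt receptors from the cell surface, and R-spondins acting through Lgr receptors clear them. Rnf43, at chr11:87662722-87735539 on the plus strand, was at 20.7, 17.7 and 22.8 CPM in day 9 Eif3m siRNA libraries, against 27.5, 23.1 and 26.4 CPM in day 9 control libraries. The day 13 levels were 16.5, 20.4 and 14.0 CPM in Eif3m siRNA libraries, against 27.45, 17.7 and 28.3 CPM in control libraries. The groups just missed each other at day 9 and overlapped at day 13 through control replicate 2. Rnf43 had a log2 fold change of −0.33 at day 9 (SE 0.17, edgeR adjusted p = 0.226) and −0.53 at day 13 (SE 0.188, edgeR adjusted p = 0.0569). Rnf43 was called lower at day 13 under 7 of 22 alternatives, among them DESeq2, with adjusted p values from 0.0114 to 0.198 over all of them.

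Znrf3, at chr11:5276324-5444847 on the minus strand, was at 9.38, 11.0 and 9.435 CPM in day 9 Eif3m siRNA libraries, against 7.25, 8.46 and 7.72 CPM in day 9 control libraries. All Eif3m siRNA libraries were higher at day 9, opposite to Rnf43. At day 13 Znrf3 was at 9.09, 13.6 and 10.7 CPM in Eif3m siRNA libraries, against 8.21, 8.69 and 16.03 CPM in control libraries. The day 13 control group held both the lowest and the highest of these libraries. Znrf3 had a log2 fold change of 0.35 at day 9 (SE 0.202, edgeR adjusted p = 0.295) and 0.02 at day 13 (SE 0.232, edgeR adjusted p = 0.971), where the 95% interval ran from −0.52 to 0.55. The day 13 value was at −0.03 with upper-quartile scaling, and in the fit of day 9 alone Znrf3 was called higher (adjusted p = 0.0494).

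Axin2 encodes a scaffold of the complex that degrades β-catenin, and Nkd1 encodes an inhibitor that binds Dishevelled; both are feedback targets of the pathway. Axin2, at chr11:108920349-108950783 on the plus strand, was at 4.81, 5.98 and 5.10 CPM in day 9 Eif3m siRNA libraries, against 7.765, 6.855 and 6.73 CPM in day 9 control libraries. The day 13 levels were 6.57, 8.53 and 5.26 CPM in Eif3m siRNA libraries, against 9.555, 9.55 and 6.39 CPM in control libraries. The groups were separate at day 9 and overlapped at day 13 through control replicate 3. The log2 fold change was −0.42 at day 9 (SE 0.176, edgeR adjusted p = 0.134) and −0.30 at day 13 (SE 0.21, edgeR adjusted p = 0.325). Without the 2 libraries lowest on the third component Axin2 was called lower at both days, with log2 fold changes of −0.44 (adjusted p = 0.0278) at day 9 and −0.72 (adjusted p = 0.022) at day 13.

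Nkd1, at chr8:88521354-88594884 on the plus strand, was at 4.215, 4.23 and 4.52 CPM in day 9 Eif3m siRNA libraries, against 4.04, 4.63 and 5.57 CPM in day 9 control libraries. The day 13 levels were 4.48, 3.15 and 3.18 CPM in Eif3m siRNA libraries, against 5.65, 3.99 and 4.22 CPM in control libraries. The groups overlapped at both days. The log2 fold change was −0.14 at day 9 (SE 0.168, edgeR adjusted p = 0.654) and −0.38 at day 13 (SE 0.22, edgeR adjusted p = 0.241), and Nkd1 was called under no alternative.

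The difference between the days was called for 0 of the 10 genes in edgeR, where 2.55% of all genes were called. At an unadjusted p under 0.05 there were 2, Glul and Slc1a2, against 18.2% of all genes, and DESeq2 called 1, Glul, where it called 6.96% of all genes. The other 8 genes had differences from −0.33 for Znrf3 to 0.35 for Tbx3 on the log2 scale. For a single gene the exact permutation test of 3 against 3 libraries cannot give a two-sided p below 0.1, and it gave 0.1 for each gene whose groups did not overlap.

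Per kilobase of merged exons, Oat and Glul stood more than 10 times above the other 8 genes in every group. Oat was at 166 and Glul at 191 CPM per kb in day 9 Eif3m siRNA livers, where their libraries overlapped, against 242 for Oat and 209 for Glul in day 9 control livers, where they did not. At day 13 Oat was at 249 and Glul at 168 CPM per kb in Eif3m siRNA livers, with overlapping libraries, against 353 and 278 CPM per kb in control livers, without overlap. Slc1a2 came next in all 4 groups, and Lgr5 was the lowest in all 4 groups. The feedback genes Axin2 and Nkd1 and the ligase Znrf3 lay between 0.79 and 1.54 CPM per kb on average, and in each of the 4 groups at least 1 step of their order lay within the spread between libraries. Rhbg, Rnf43 and Tbx3 held the places in between, and Rnf43 and Tbx3 overlapped in the day 9 control group but not in the day 9 Eif3m siRNA group. Slc1a2 was at 4.80 CPM per kb in day 13 Eif3m siRNA livers, where its libraries overlapped those of Rhbg, against 9.68 CPM per kb in day 13 control livers, where they lay above every other gene but Oat and Glul. Slc1a2 and Rhbg libraries also overlapped in day 9 Eif3m siRNA livers, but not in day 9 control livers.

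**Figure D3:**
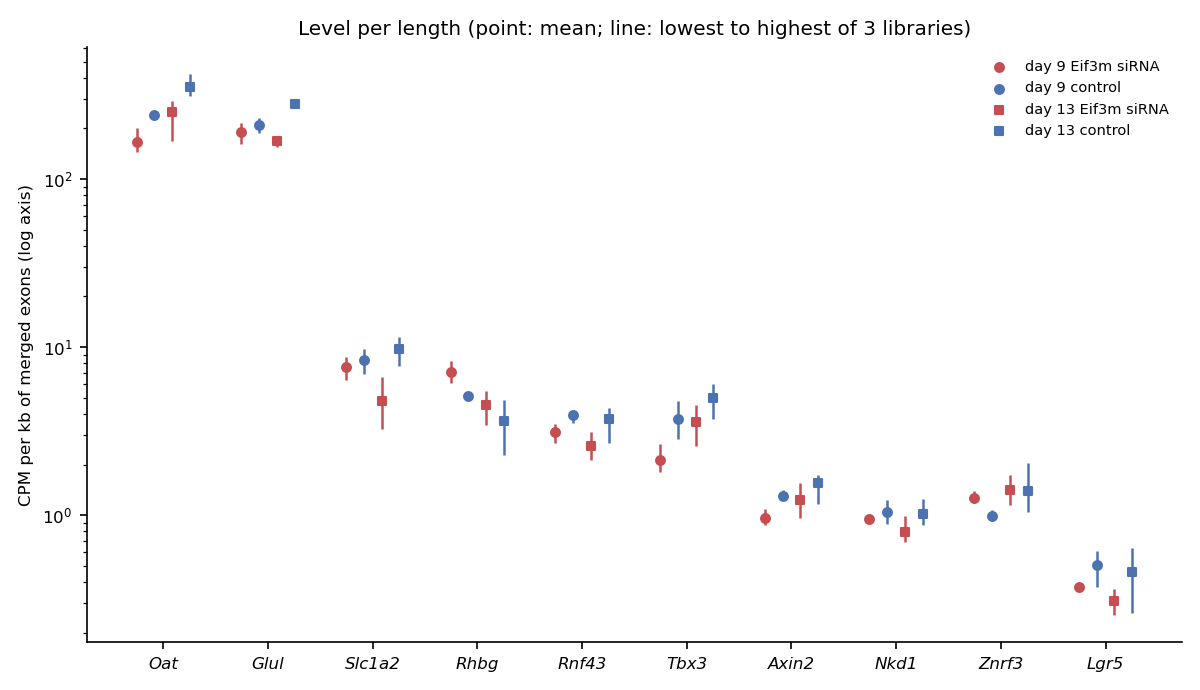
Mean level per kilobase of merged exons (log axis, CPM per kb) of the 10 genes in the 4 groups, with lines from the lowest to the highest of 3 libraries, Eif3m siRNA in red and control in blue, circles for day 9 and squares for day 13. Oat and Glul lie above 100 in every group, and Lgr5 lies below 1.

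The genes most like each called gene were found by the root mean square difference, over the 12 libraries, of log2 CPM minus the mean of that day's controls, among genes that averaged 5 CPM or more. For Glul these were Clp1 (0.0735), Gdf2 (0.0968) and Psap (0.104). For Slc1a2 they were B4galt5 (0.162), Bcorl1 (0.209) and Lpin1 (0.215), and for Tbx3 they were Iqce (0.201), Mast3 (0.206) and Naa80 (0.209). None of these was among the 10 genes or on the lists of Wnt and zonation genes. Genes that averaged below 5 CPM, Lgr5 and Nkd1 among them, could not be found this way.

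Other genes of pericentral hepatocytes were described beside the 10. Of 28 such genes, all tested, 11 fell and 1 rose at day 9, with a median log2 fold change of −0.43, and 17 fell and 2 rose at day 13, with a median of −0.58. All genes tested had 6.84% lower and 5.94% higher calls at day 9, with a median of 0.01. At day 13 they had 10.9% lower and 12.8% higher calls, with a median of 0.00. The same shares stand beside the counts of periportal genes below. The count of falls at day 9 was 6 without day 9 Eif3m siRNA replicate 1 and 7 without replicate 2, and at day 13 it was 11 without day 13 control replicate 1. The list was tested gene by gene only, and whether it differs from the 10 was not tested.

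Among these, Cyp2e1, a cytochrome P450 that oxidizes ethanol, averaged 5757 ± 1035 CPM in Eif3m siRNA livers and 7415 ± 985 CPM in control livers at day 9 (SD, n = 3 each), a log2 fold change of −0.37 that was not called (edgeR adjusted p = 0.214). At day 13 it fell to 4181 ± 941 CPM in Eif3m siRNA livers, against 7021 ± 609 CPM in control livers (SD, n = 3 each; log2 fold change −0.75, edgeR adjusted p = 0.00904). Cyp1a2, another cytochrome P450, fell at day 9 (−0.77, edgeR adjusted p = 0.00149) and was at −0.35 at day 13 (edgeR adjusted p = 0.055). The bile acid enzyme Cyp27a1 fell by 0.83 at day 9 and by 1.04 at day 13 on the log2 scale. Cyp2c37 (−1.08 and −1.86), Cyp2c50 (−0.70 and −1.35) and the glutathione transferase Gstm2 (−0.72 and −1.14) fell at day 9 and day 13 as well, but each has close paralogs among which counts can be split, so their values are uncertain. The 2 that rose, chosen here after their values were seen, were the tight junction gene Cldn2 (0.48 at day 9 and 0.76 at day 13) and the organic cation transporter Slc22a3 (1.07 at day 13).

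Of 22 genes of periportal hepatocytes, which line the opposite end of the lobule, 4 rose and 4 fell at day 9 and 4 rose and 3 fell at day 13, with medians of −0.02 and −0.09. Pck1, an enzyme of gluconeogenesis, rose at day 9 (1.499), as did G6pc (2.37). Pigr, the receptor for polymeric immunoglobulins, fell at both days (−0.48 and −1.17). Apoa4 was at −0.18 at day 9, not called, and fell at day 13 (−1.16). Cyp2f2, a cytochrome P450 of periportal hepatocytes, was at −0.48 and −0.38 and was not called. In summed CPM the 10 genes ran from 1046 to 1312 in day 9 Eif3m siRNA libraries, against 1367 to 1532 in day 9 controls, and from 1063 to 1424 in day 13 Eif3m siRNA libraries, against 1842 to 2136 in day 13 controls. Glul and Oat make up most of that sum. The 28 other pericentral genes summed to 12180 to 16000 CPM with Eif3m siRNA against 19130 to 21090 CPM in controls at day 9, and to 9694 to 12820 CPM with Eif3m siRNA against 17600 to 19330 CPM in controls at day 13. The periportal sums overlapped at both days, from 16110 to 18650 against 15720 to 18100 CPM at day 9 and from 18160 to 20060 against 16460 to 18470 CPM at day 13, Eif3m siRNA against control. These sums join genes that moved in opposite directions. At day 9 Pck1 averaged 3126 CPM with Eif3m siRNA against 1106 CPM in controls, and Ass1 2239 against 3855 CPM. At day 13 Cps1 averaged 7128 CPM with Eif3m siRNA against 4266 CPM in controls, and Pigr 729.5 against 1638 CPM. Ass1 and Cps1 are named here after their values were seen.

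**Figure D4:**
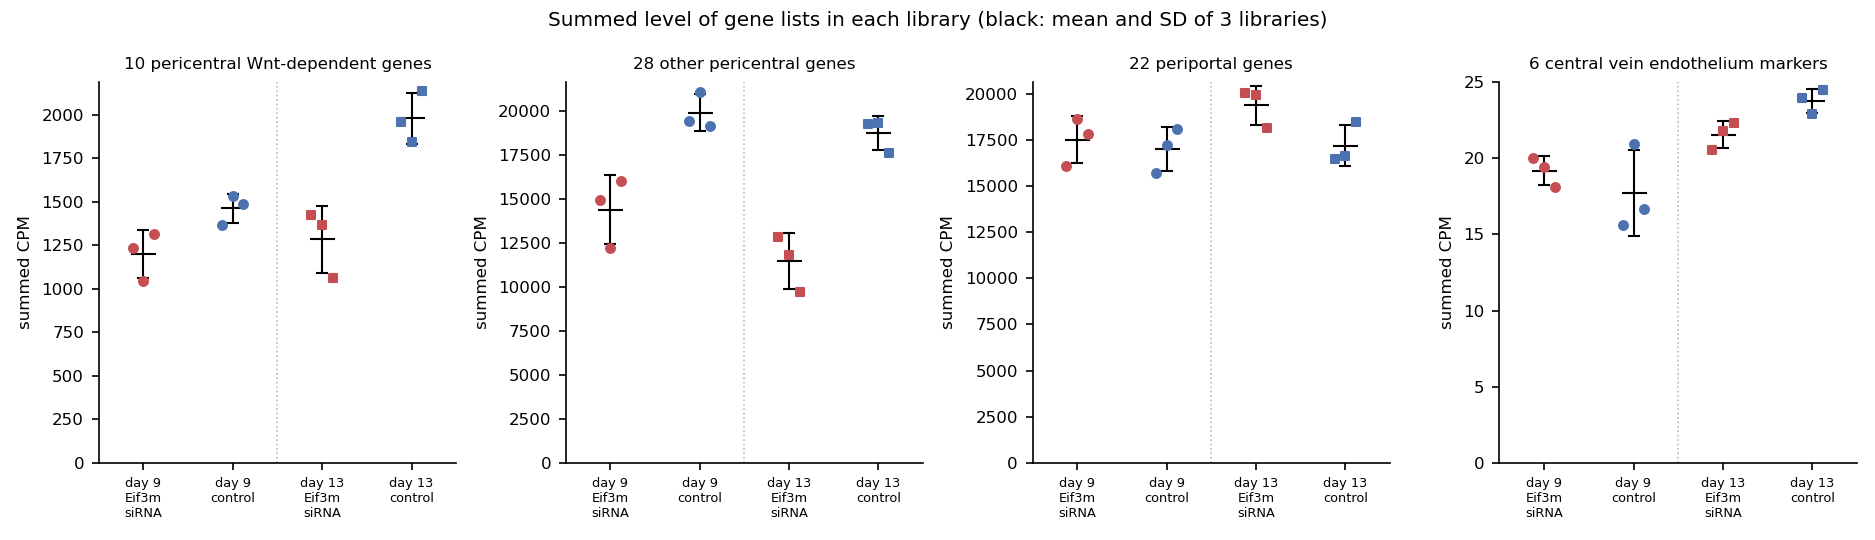
Summed CPM (axes from 0) of the 10 genes, 28 other pericentral genes, 22 periportal genes and 6 markers of central vein endothelium in each library, Eif3m siRNA in red and control in blue, circles for day 9 and squares for day 13; black lines are the mean and SD of 3 libraries. Eif3m siRNA libraries lie below controls at both days for both pericentral sums. They overlap controls at both days for the periportal sum, which joins genes that moved in opposite directions. For central vein endothelium they overlap controls at day 9 and lie below them at day 13.

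The pathway that the 10 genes report on was covered by lists of its own. For these and the lists that follow, the shares over all genes tested were 6.84% lower and 5.94% higher at day 9. At day 13 these shares were 10.9% lower and 12.8% higher. Of 25 Wnt ligands, R-spondins and secretion genes, 10 had counts enough to be tested, of which 2 fell at day 9 (Wnt5b, −0.84, and Porcn, the enzyme that acylates Wnt proteins, −0.70) and 0 were called at day 13 by edgeR, DESeq2 or limma-voom. At day 13 the unadjusted p was under 0.05 for 1, Wnt9b. The central vein ligands Wnt2 (−0.34 and 0.17) and Wnt9b (−0.09 and −0.84) and the R-spondin Rspo3 (−0.09 and −0.15) were not called at day 9 or day 13. Their levels were low, at 2.72, 1.304 and 4.46 CPM in day 9 Eif3m siRNA livers and 3.43, 1.38 and 4.74 CPM in day 9 control livers for Wnt2, Wnt9b and Rspo3. At day 13 Wnt9b was at 1.21 CPM with Eif3m siRNA, from 8 to 16 counts a library, and 2.19 CPM in controls, from 15 to 20 counts. Those CPM did not overlap, with Eif3m siRNA lower, as for 16% of all genes, while Wnt2 and Rspo3 overlapped at day 13.

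Among receptors and secreted antagonists, 17 of 30 were tested, with 3 lower and 0 higher at day 9 and 2 lower and 1 higher at day 13. The receptor Fzd8 fell at both days (−1.01 and −1.53), the co-receptor Lrp5 at day 13 (−0.61) and the secreted Wnt inhibitor Notum at day 9 (−0.70), while the receptor Fzd5 rose at day 13 (0.85). Of 29 genes of the destruction complex and of the nuclear partners of β-catenin, 1 rose and 2 fell at day 9, and 3 rose and 2 fell at day 13. Ctnnb1, which encodes β-catenin, was at −0.03 and −0.16 and was not called. Tcf7l2, the main T-cell factor gene of hepatocytes, was at 0.03 at day 9 and rose at day 13 (0.51), and the β-catenin co-activator gene Bcl9l fell at day 13 (−0.83). The co-repressor genes Tle1 (0.40) and Tle2 (−1.10) were called in opposite directions at day 9.

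Wnt targets known from other tissues were called in both directions. Some of them are expressed in these livers, such as Notum at 34.9 CPM and Ccnd1 at 114 CPM in day 9 controls. Whether any of them is also a target in pericentral hepatocytes was not tested. Of 14, 10 were tested, with 1 higher and 2 lower at day 9 and 1 of each at day 13. The 2 lower at day 9 are also on the list of receptors and secreted antagonists, and were already counted among its 3 lower genes. The adhesion receptor gene Cd44 rose at day 9 (1.27), Sox9, a transcription factor of bile duct cells, rose at day 13 (2.02), and the cyclin gene Ccnd1 fell at day 13 (−1.32). Of 25 other genes of glutamine, glutamate, proline and ammonium handling in the table, 21 were tested, with 2 of each direction at day 9 and 3 of each at day 13. Prodh, which begins the breakdown of proline, fell at both days (−1.56 and −1.22), and Aldh4a1, the next enzyme of that route, fell at day 13 (−0.71). The alanine aminotransferase gene Gpt2 rose at day 13 (1.00) and the glutamine transporter gene Slc38a2 rose at day 9 (0.90).

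**Figure D5:**
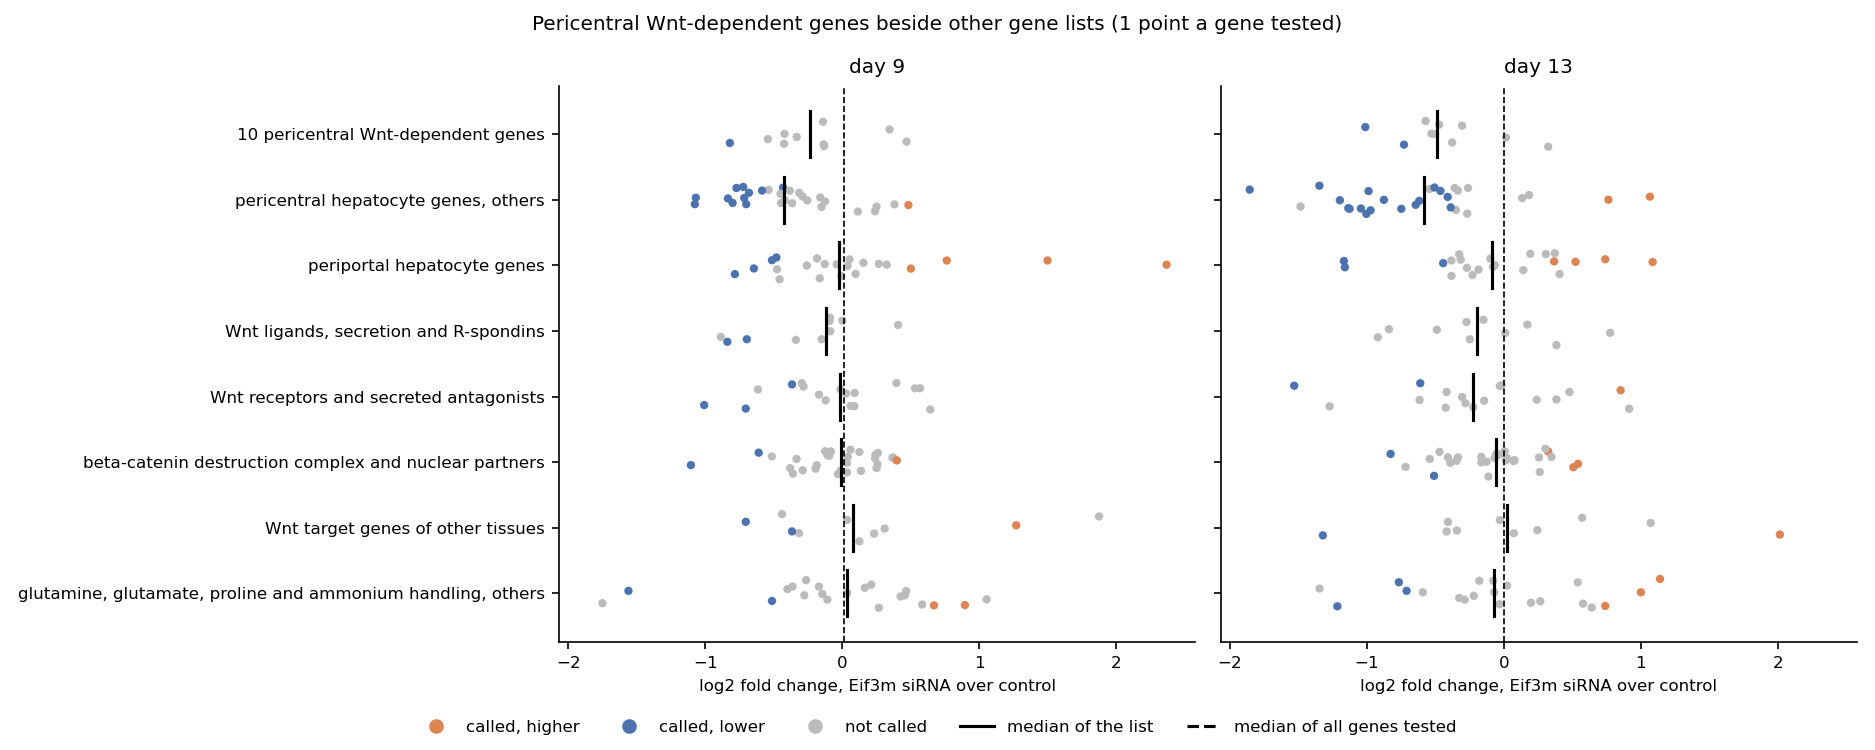
Log2 fold change, Eif3m siRNA over control, of every gene tested on 8 lists at day 9 (left) and day 13 (right), orange and blue for genes called higher and lower and grey for the others; short bars are list medians and the dashed line is the median of all genes. The pericentral lists have their medians left of the dashed line at both days, at −0.24 and −0.49 for the 10 genes and −0.43 and −0.58 for the other pericentral genes.

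Markers of the cells that these livers hold were summed in each library, and their part in the values above was not tested. Of 8 hepatocyte markers, 1 was lower at day 9, and 2 were lower and 2 higher at day 13. Their sum, mostly Alb, was 90870 to 96740 CPM with Eif3m siRNA against 111900 to 118900 CPM in controls at day 9, and 104400 to 162000 CPM against 172000 to 194700 CPM at day 13. No hepatocyte marker was at 0. These sums, like the pericentral ones, were lower with Eif3m siRNA and did not overlap controls at either day. Of 6 markers of central vein endothelium, the source of the Wnt signal, 0 were called by edgeR at either day. At an unadjusted p under 0.05 there was 1 at each day, Kit at day 9 and Wnt9b at day 13, named after their values were seen, and limma-voom called 1 higher at day 9 where DESeq2 called 0. Their sum was 18.1 to 20.02 CPM with Eif3m siRNA against 15.6 to 20.9 CPM in controls at day 9, and 20.6 to 22.3 CPM against 22.9 to 24.5 CPM at day 13.

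Markers of the other cell types of the liver are given in the same way, Eif3m siRNA against control throughout. Beside their counts, the shares over all genes tested were 6.84% lower and 5.94% higher at day 9, and 10.9% lower and 12.8% higher at day 13. Of 13 general endothelial markers 1 was higher at day 9 and 4 were lower at day 13, with sums of 477 to 528.5 CPM with Eif3m siRNA against 452 to 491 CPM in controls at day 9 and 412 to 466 against 494 to 584 CPM at day 13. Of 9 Kupffer cell markers 4 were lower at day 9, and 5 were lower and 1 higher at day 13, with sums of 178 to 212 CPM against 254 to 306 CPM at day 9 and 113 to 192 against 209 to 273.5 CPM at day 13. Of 8 monocyte and macrophage markers 2 were higher at day 9 and 3 lower at day 13, with sums of 178 to 199 CPM against 101 to 128 CPM at day 9 and 101.5 to 128 against 205 to 239 CPM at day 13. Of 9 stellate cell markers 1 was higher at day 9 and 3 were lower at day 13, with sums of 361 to 404 CPM against 266 to 360 CPM at day 9 and 357 to 383 against 440 to 591 CPM at day 13. Of 7 cholangiocyte markers 5 were tested, of which 1, Sox9, was higher at day 13, with sums of 26.4 to 29.0 CPM against 20.3 to 25.9 CPM at day 9 and 26.4 to 35.05 against 20.3 to 26.1 CPM at day 13.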

How the data were processed

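The 12 mouse liver libraries were deposited as 1 table of estimated counts, whole numbers per Ensembl identifier, which were taken as rounded RSEM estimates. Per the submitters' processing notes the tools were STAR 2.5.3a and RSEM 1.3.0 and the build was mm10. Annotation, strand setting and filters: not given in the sources used here. Symbols and positions came from GENCODE M21, and the 224 of 50686 identifiers without a symbol held 0.0199% of the counts.

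Genes were kept by filterByExpr (minimum count 10) in edgeR 4.0.16, which left 14248. CPM use scaling factors from the trimmed mean of M-values. The main test was edgeR's two-sided quasi-likelihood test with the 4 groups as factor levels (12 libraries, 8 residual degrees of freedom), with Benjamini-Hochberg adjustment over all genes tested and a threshold of 0.05 ("called"). Log2 fold changes are Eif3m siRNA over control. SE is their standard error, worked back as the size of the log2 fold change over the square root of the test's F statistic. The 95% intervals use the t distribution with 8 degrees of freedom. The p-values also draw on the spread of other genes, so intervals and p-values need not match. Levels per kilobase divide CPM by merged exon length. Every pair of replicates differed by more than sampling noise.

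The 10 genes, 7 pathway lists and 7 marker lists were chosen with earlier results of these data known. Some genes are on more than 1 list, so the calls given for different lists are not all separate. Besides the 10 genes, Eif3m and 8 zonation and Wnt genes set by name, up to 4 called genes of each pathway list with the smallest p are named, and the text says so where a name falls outside this rule. Alternatives were DESeq2 1.42.0 and its size factors, upper-quartile scaling, no filter, a mean of at least 5 CPM, limma-voom (limma 3.58.1), a replicate block, each day alone, thinned day 9 counts and leaving out each library. Added after seeing the data were a fit without the 2 day 13 libraries lowest on the third principal component and one with the counts of Gm38392 added to Rhbg. The edgeR test at day 9 was tried on simulated counts with known changes, and the day 13 test, the difference between the days and the alternatives were not. R 4.3.3 and Python 3.11.15 were used.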

Additional observations from a re-analysis of the deposited data

Results flagged for a closer look

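The difference of the siRNA effect between the days was taken as day 13 minus day 9. It passed an adjusted p of 0.05 in edgeR's quasi-likelihood test for 5 of the named genes, all outside the 10. Over all genes tested, 2.55% passed. These 5 were named for their small p at day 9 or day 13 in the same libraries, so their number cannot be set against the 10. Day, library kit and depth cannot be told apart in this difference. Sox9 differed by 1.71 on the log2 scale, with log2 fold changes of 0.31 at day 9 and 2.02 at day 13. Gpt2 differed by 0.84, with 0.16 at day 9 and 1.00 at day 13. G6pc differed by −2.64, with 2.37 at day 9 and −0.27 at day 13. Cd44 differed by −1.61, with 1.27 at day 9 and −0.34 at day 13. Apoa4 differed by −0.98, with −0.18 at day 9 and −1.16 at day 13.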

How the results depend on the processing

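Glul and Slc1a2 at day 13 kept their direction and their call under all alternatives run, and the call of Tbx3 at day 9 depended on the setting; the cause was not tested. Of the 10 genes, 1 was called at day 9 in the main analysis, 0 without a filter on low counts, 0 with the replicate block, 0 with thinned day 9 counts, 2 with DESeq2, 2 without the 2 day 13 libraries lowest on the third principal component and 5 with day 9 alone, where 23% of all genes were called. Leaving out each library gave 0 to 2 at day 9, 2 to 3 at day 13 and 0 to 1 for the difference between the days, for which DESeq2 called 1. Over all genes, 1821 calls at day 9 compare with 2740 by limma-voom, 3412 with day 9 alone and 3050 without those 2 lowest libraries, and with 884 to 2250 leaving out each library, the lowest counts (884 to 1145) being those without any 1 of the 6 day 9 libraries. At day 13, 3377 calls compare with 2014 for that day alone and 2299 to 3288 leaving out each library. For the difference, 364 calls compare with 991 by DESeq2, 117 with the block, 235 with thinned counts and 130 to 508 leaving out each library (130 to 222 without day 9 control replicate 1, 2 or 3, day 9 Eif3m siRNA replicate 1 or 3, day 13 control replicate 1 or day 13 Eif3m siRNA replicate 3). Over the 7 pathway lists, with each gene counted once, leaving out each library gave 19 to 34 calls at day 9 (19 to 21 without control replicate 1 or 3 or Eif3m siRNA replicate 1 of day 9), against 32, and 30 to 45 at day 13, against 41. The marker lists were not included in this count. Of the calls for the difference 35.2% were higher, against 22.9% with upper-quartile scaling, 23.9% with the block, 47.5% with DESeq2, 55.6% without those 2 lowest libraries, and 26.2% to 51.2% leaving out each library, the highest without day 13 Eif3m siRNA replicate 2.

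Replicate numbers showed no sign of pairing the libraries, although 3 pairs a day are too few to exclude it. The deviations of same-numbered libraries correlated at −0.109, −0.158 and 0.158 at day 9 and at 0.081, −0.067 and −0.013 at day 13. Those of different-numbered libraries correlated at −0.143 to 0.225 at day 9 and at −0.120 to 0.130 at day 13. With the number as a block, 1216, 2681 and 117 of all genes and 0, 2 and 0 of the 10 were called at day 9, at day 13 and between the days.

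Some uncalled log2 fold changes near 0 changed sign; the cause was not tested. Leaving out each library, the day 9 values ran from −0.0666 to 0.0118 for Ctnnb1, −0.0529 to 0.0543 for Fzd5, −0.0356 to 0.125 for Tcf7l2 (−0.00911 with thinned counts) and −0.229 to 0.0591 for Wnt9b. The day 13 values ran from −0.327 to 0.00482 for Rspo3, −0.255 to 0.0777 for Slc38a2, −0.0586 to 0.296 for Wnt2, −0.201 to 0.161 for Wnt5b and −0.170 to 0.394 for Znrf3. Wnt5b was at −0.0422, −0.00856 and −0.00578 with upper-quartile scaling, the replicate block and day 13 alone, and Znrf3 at −0.0280 and −0.00103 with upper-quartile scaling and a mean of 5 CPM or more. Without the 2 libraries lowest on the third component Rspo3 was at 0.0537, Tle1 at −0.0236 and Wnt5b at −0.375 at day 13, and the difference between the days was −0.279 for Axin2 and 0.0239 for Lgr5. Leaving out each library, that difference ran from −0.0944 to 0.264 for Axin2, −0.416 to 0.144 for Lgr5, −0.0869 to 0.247 for Oat (−0.00512 with upper-quartile scaling), −0.432 to 0.131 for Rhbg (0.119 with Gm38392 added) and −0.502 to 0.0466 for Znrf3. Lgr5 had 20 to 46 counts in a day 13 control library, and the effect of depth was not tested at day 13.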
